A study of Danio rerio with 8 samples.

Results

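The claudins and connexins, the membrane proteins of tight and gap junctions, were followed across epicardial cells (EpiCs) and cardiomyocytes (CMs) of zebrafish hearts. They were taken as every row of the deposited gene table whose Ensembl gene symbol begins with cldn, with cx and a digit, or with gj, a class letter from a to e and a digit. This gave 42 of 21286 genes, of which 19 were claudins and 23 connexins, and all 42 were listed as protein coding. EpiCs of tcf21-/- and of tcf21+/+ hearts and CMs of the same 2 genotypes were sorted by FACS at 96 hpf, which gave 4 groups with 2 libraries each. The series asks how the loss of tcf21, a transcription factor gene of the epicardium, changes both cell types. All larvae carried TgBAC(tcf21:NLS-EGFP) and Tg(myl7:mCherry-CAAX), reporters driven by epicardial tcf21 and myocardial myl7 regulatory sequence. The mutants were homozygous for tcf21 bns427, a short deletion in exon 1 made with CRISPR/Cas9. EpiCs were the EGFP-positive cells, including those positive for both reporters, and CMs were mCherry-positive and EGFP-negative. Cells of many dissected hearts were pooled for each library.

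Heterozygous parents gave the tcf21-/- larvae, of which only those with a well covered ventricle were taken. The parents of the tcf21+/+ larvae were themselves tcf21+/+ siblings. Genotype, parentage and this selection cannot be told apart. The reporter that defined EpiCs is itself built on tcf21, and the outflow tract contributes EpiCs to the same gate.

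Claudins span the membrane and meet their partners on the neighbouring cell in tight junctions, where some seal the gap between cells and others form pores for ions or water. Connexins assemble into hexameric channels that dock across the gap between cells and let ions and small molecules pass. In the heart, gap junctions carry the electrical impulse from CM to CM, and in mammals GJA1 is the main connexin of the working ventricle, while GJA5 is found in the atria and the conduction system. In zebrafish, gja3 is needed for conduction in the ventricle, cx36.7 for myofibril order in the early heart, and gja5b, the leopard gene, and cx39.4 are also known from pigment stripes. Connexins are grouped into classes, alpha to epsilon, by sequence, and newer symbols carry the class letter (gja to gje). A match of symbols to RefSeq, used for names only, was found for 40 of the 42 genes. It gave cx43 as gja1b, cx43.4 as gjc4b, cx39.4 as gja4, cx34.4 as gjb10, cx32.2 as gja13.2 and cx36.7 as gjd6.

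The values are reads counted per gene, divided by 1 factor per library and rounded. They are called normalized values here. They are not corrected for gene length, so that levels are compared between groups and not between genes. The libraries held an estimated 6.44 to 11.40 M reads on genes, fewest in tcf21+/+ CM 1, and a limit of 3 reads corresponded to a value of 2.33 to 4.72. Summed values of 8 epicardial markers were 26571 to 30190 in EpiCs and 824 to 1172 in CMs, and those of 8 CM markers were 8131 to 12931 in EpiCs and 84223 to 90040 in CMs. The targeted gene itself was at 1636 and 1454 in tcf21-/- EpiCs, against 1600 and 1851 in tcf21+/+ EpiCs, so that its RNA level does not check the genotype labels. Summed values of 6 smooth muscle and outflow tract markers were 14514 to 17660 in EpiCs and 2485 to 4747 in CMs. Of these markers, acta2 and cnn1b overlapped between the cell types, and desmb was lower in EpiCs. The part of such cells in the claudin and connexin values was not tested. In sorted bulk samples, fewer cells of a type and less RNA per cell cannot be told apart.

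Of the 42 genes, 23 had a mean value of at least 10 over the 8 libraries and were tested, 11 claudins and 12 connexins. Just inside this limit were cldn19 (mean 10.8) and cx34.4 (10.9), and just outside it cldn11a (9.4) and cx30.3 (8.0). 12 of the 42 were above 0 in all 8 libraries, 8 of them claudins. 10 were at 0 in all 4 CM libraries and 3 in all 4 EpiC libraries. In the whole table, fewer genes were above 0 in each CM library (16620 to 17695) than in each EpiC library (18633 to 19154). Values were compared as log2(value + 1) with limma, with adjustment over the 16077 genes tested in the whole table, and a gene was called at an adjusted P (Padj) under 0.05 with an absolute log2FC of at least 0.59. On this scale, log2FC understates the change of low genes, and against a group near 0 it depends on the 1 that was added.

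**Figure D1:**
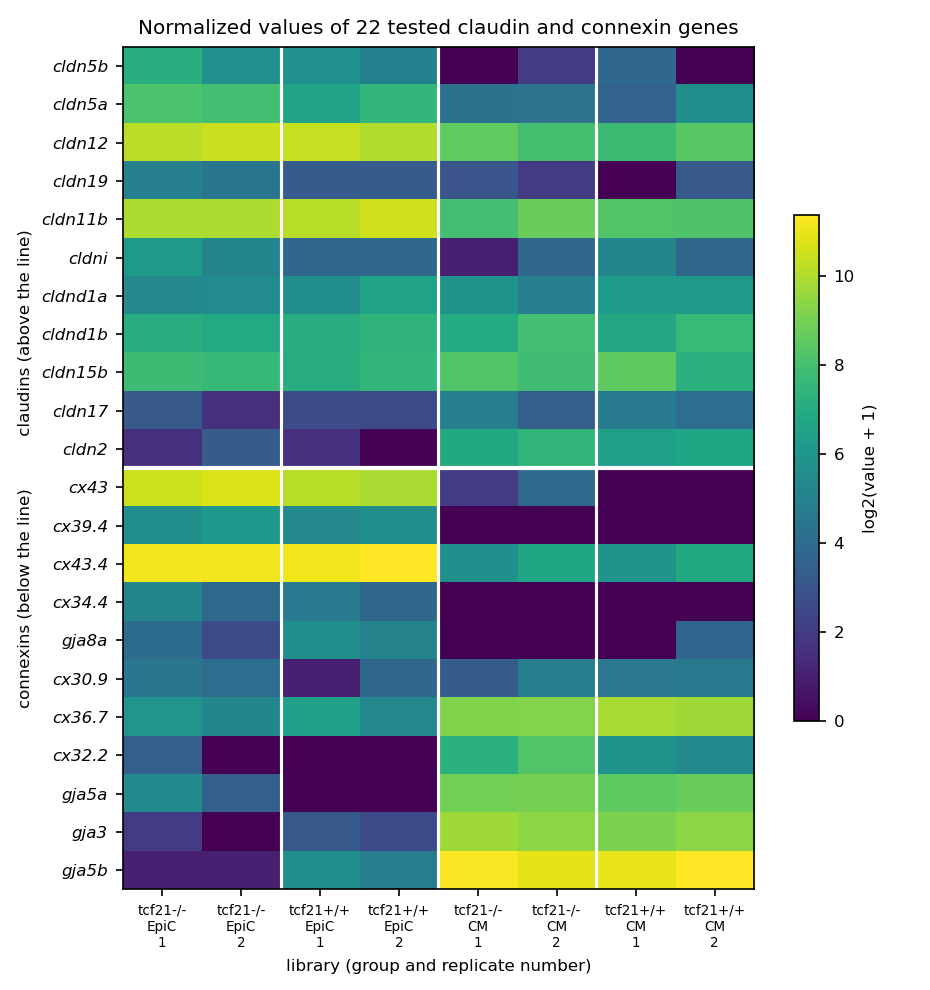
Normalized values of 22 of the 23 tested genes as log2(value + 1), 1 row per gene (claudins above the white line, connexins below) and 1 column per library, from tcf21-/- EpiCs at the left to tcf21+/+ CMs at the right. cx43, cx43.4, cx39.4 and cx34.4 are brighter in the 4 EpiC libraries, and gja5b, gja3, gja5a and cx36.7 in the 4 CM libraries, while cldnd1b lies between 115 and 247 in every library.

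The connexins counted in EpiCs were largely other ones than those counted in CMs. The summed values of all connexins lay close together, with 4046 and 4263 in tcf21-/- EpiCs against 4681 and 4174 in tcf21-/- CMs, and 3743 and 3836 in tcf21+/+ EpiCs against 3989 and 4813 in tcf21+/+ CMs. Of the reads behind these sums, without regard to gene length, cx43 and cx43.4 took 89 to 92.3% in the EpiC libraries and 1.15 to 2.87% in the CM libraries. gja5b, gja5a, gja3 and cx36.7 together took 1.1 to 3.9% in the EpiC libraries and 88.9 to 96.6% in the CM libraries. Summed claudin values were 3120 and 3107 in tcf21-/- EpiCs against 1303 and 1430 in tcf21-/- CMs, and 2979 and 3324 in tcf21+/+ EpiCs against 1261 in each tcf21+/+ CM library.

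In the tcf21-/- comparison, 10 of the 23 genes were higher in EpiCs than in CMs, 6 were lower and 7 were not called. Over all genes tested, 21% were called higher and 18% lower. 5 claudins and 5 connexins were higher, and 1 claudin and 5 connexins were lower. The median log2FC was 1.57 for the claudins and 1.74 for the connexins, beside 0.09 for all genes, and the connexin median was 0.86 when genes with a group at 0 were set at the bound that 3 reads allow. In the tcf21+/+ comparison, 9 were higher, 6 lower and 8 not called, where 22.9% and 18.8% of all genes tested were called. 3 claudins and 6 connexins were higher, and 1 claudin and 5 connexins were lower, which left only cx30.9 uncalled among the connexins. The medians were 0 for the claudins and 0.66 for the connexins, beside 0.11, and the connexin median turned to −0.07 with those bounds. The 2 comparisons use different libraries but come from 1 fit with a shared estimate of the spread, so that their calls are not independent. They shared 8 higher calls, 80% of those in tcf21-/- and 88.9% of those in tcf21+/+ cells, as well as all 6 lower calls, and no gene was called in opposite directions. The share of common calls over all genes tested was not computed, so these shares cannot be set beside it.

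The connexins that were higher in EpiCs included cx43 and cx39.4 of the alpha, cx34.4 of the beta and cx43.4 of the gamma class. cx43 (ENSDARG00000041799, GRCz11 chromosome 20, 40715163 to 40720530) reached 1445 and 1714 in tcf21-/- EpiCs, against 3 and 14 in tcf21-/- CMs. It had 1107 and 957 in tcf21+/+ EpiCs, against 0 in both tcf21+/+ CM libraries, which makes it at least 219-fold higher (3 reads per library as the limit). The log2FC was 7.67 (SE 0.66, Padj=5.64e-05) in tcf21-/- and 10.01 (SE 0.66, Padj=1.96e-05) in tcf21+/+ cells by limma. No CM library came near an EpiC library.

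cx43.4 (ENSDARG00000007099, chromosome 9, 46405587 to 46415847), known in zebrafish from left-right patterning, had 2255 and 2220 in tcf21-/- EpiCs, against 51 and 106 in tcf21-/- CMs. In tcf21+/+ cells it had 2226 and 2546 in EpiCs, against 57 and 118 in CMs. These are log2FC of 4.91 (SE 0.41, Padj=5.13e-05) in tcf21-/- and 4.84 (SE 0.41, Padj=4.83e-05) in tcf21+/+ cells by limma, and the genotypes overlapped within each cell type. The CM level was 3.51% of the EpiC level in tcf21-/- and 3.67% in tcf21+/+ cells, beside 14.2% and 14.7% for the epicardial marker cav1. The other 7 of 8 epicardial markers lay lower than cx43.4, at 0.238 to 1.99% in tcf21-/- and at 0 to 3.35% in tcf21+/+ cells. Carried-over EpiCs or EpiC RNA as a source of the CM values was not tested.

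cx39.4 and cx34.4 were counted in all EpiC libraries and were at 0 in all 4 CM libraries. cx39.4 had 48 and 65 in tcf21-/- EpiCs, at least 16.5-fold higher than in CMs, with 40 and 48 in tcf21+/+ ones, at least 9.33-fold higher. cx34.4 had 35 and 14 in tcf21-/- EpiCs, at least 7.16-fold higher (4.09-fold without EpiC 1), with 25 and 13 in tcf21+/+ ones, at least 4.03-fold higher. Both were called in both genotypes, with Padj between 0.000441 and 0.00444 by limma, but cx34.4 lost both calls under cyclic loess normalization (log2FC 2.50, Padj=0.0746 in tcf21-/- and 1.6, Padj=0.229 in tcf21+/+ cells).

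gja8a, a gene known in mammals from the lens fibres, was the weakest of the EpiC connexins. It had 15 and 5 in tcf21-/- EpiCs, against 0 in both tcf21-/- CM libraries, and 46 and 33 in tcf21+/+ EpiCs, against 0 and 12 in tcf21+/+ CMs. It missed the threshold in tcf21-/- cells (log2FC 3.29, SE 1.23, Padj=0.0628 by limma) and passed by a narrow margin in tcf21+/+ cells (3.47, SE 1.23, Padj=0.0491). In tcf21+/+ cells the call was lost in 12 of 16 alternatives. Among them were leaving out EpiC 1 (3.24, Padj=0.172), EpiC 2 (3.70, Padj=0.122) or CM 1 (1.62, Padj=0.253), while leaving out CM 2, the only CM library with reads, gave 5.32 (Padj=0.00526).

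The connexins that were lower in EpiCs, and so higher in CMs, were 4 of the alpha class, gja5b, gja5a, gja3 and cx32.2, and cx36.7 of the delta class. gja5b (ENSDARG00000069450, chromosome 1, 47414734 to 47431453) had 1 and 1 in tcf21-/- EpiCs, against 2526 and 1891 in tcf21-/- CMs. In tcf21+/+ cells it had 49 and 26 in EpiCs, against 2009 and 2619 in CMs. The log2FC was −10.09 (SE 0.42, Padj=5.71e-06) in tcf21-/- and −5.96 (SE 0.42, Padj=2.44e-05) in tcf21+/+ cells by limma. Only 2 reads lie behind the tcf21-/- EpiC level, which gave a ratio of 2670 with a 95% counting interval of 738 to 22000.

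Its paralogue gja5a (ENSDARG00000040065, chromosome 9, 30464641 to 30477311) had 41 and 10 in tcf21-/- EpiCs, against 483 and 526 in tcf21-/- CMs. It was at 0 in both tcf21+/+ EpiC libraries, against 374 and 429 in tcf21+/+ CMs, at least 149-fold lower in EpiCs. The log2FC was −4.55 (SE 0.69, Padj=0.00103) in tcf21-/- and −8.65 (SE 0.69, Padj=3.69e-05) in tcf21+/+ cells by limma. By the methods, reads that aligned to more than 1 place or overlapped more than 1 gene were left out, and how many reads these paralogues lost in this way was not tested.

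gja3 (ENSDARG00000021889, chromosome 9, 21407987 to 21409466) had 3 and 0 in tcf21-/- EpiCs, against 841 and 684 in tcf21-/- CMs, and 8 and 5 in tcf21+/+ EpiCs, against 549 and 676 in tcf21+/+ CMs. Its log2FC was −8.57 (SE 0.71, Padj=4.8e-05) in tcf21-/- and −6.38 (SE 0.71, Padj=0.00018) in tcf21+/+ cells by limma. cx36.7 (ENSDARG00000017927, chromosome 7, 12835048 to 12836225) had 60 and 36 in tcf21-/- EpiCs, against 597 and 608 in tcf21-/- CMs, and 89 and 39 in tcf21+/+ EpiCs, against 923 and 859 in tcf21+/+ CMs. Its log2FC was −3.67 (SE 0.44, Padj=0.000285) in tcf21-/- and −3.89 (SE 0.44, Padj=0.000193) in tcf21+/+ cells by limma.

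What remained of these genes in EpiCs can be set beside CM genes in the same libraries. The EpiC level of myh6, a myosin heavy chain gene, was 1.01% of the CM level in tcf21-/- and 3.5% in tcf21+/+ cells. It was 3.9% and 4.02% for the titin gene ttn.1, 5.8% and 6.7% for ttn.2, and 21.7% and 15.9% for myh7. The other 4 of the 8 CM markers had much larger shares, with 48.7% and 43.8% for myl7, 54.5% and 47.2% for the troponin gene tnnt2a, and 36.8% and 38.6% for actc1a, and tnni1b was also above myh7 in both genotypes. For cx36.7 the shares were 7.97% in tcf21-/- and 7.18% in tcf21+/+ cells, for gja3 0.197% and 1.06%, for gja5b 0.0453% and 1.62%, and for gja5a 5.05% in tcf21-/- cells and 0 in tcf21+/+ cells. The share of cx36.7 was above those of myh6, ttn.1 and ttn.2 and below those of the other 5 markers in both genotypes. Those of gja3 and gja5b were below those of all 8. The EpiC gate included cells with the myocardial reporter, and the part of CM RNA in these values was not tested.

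**Figure D2:**
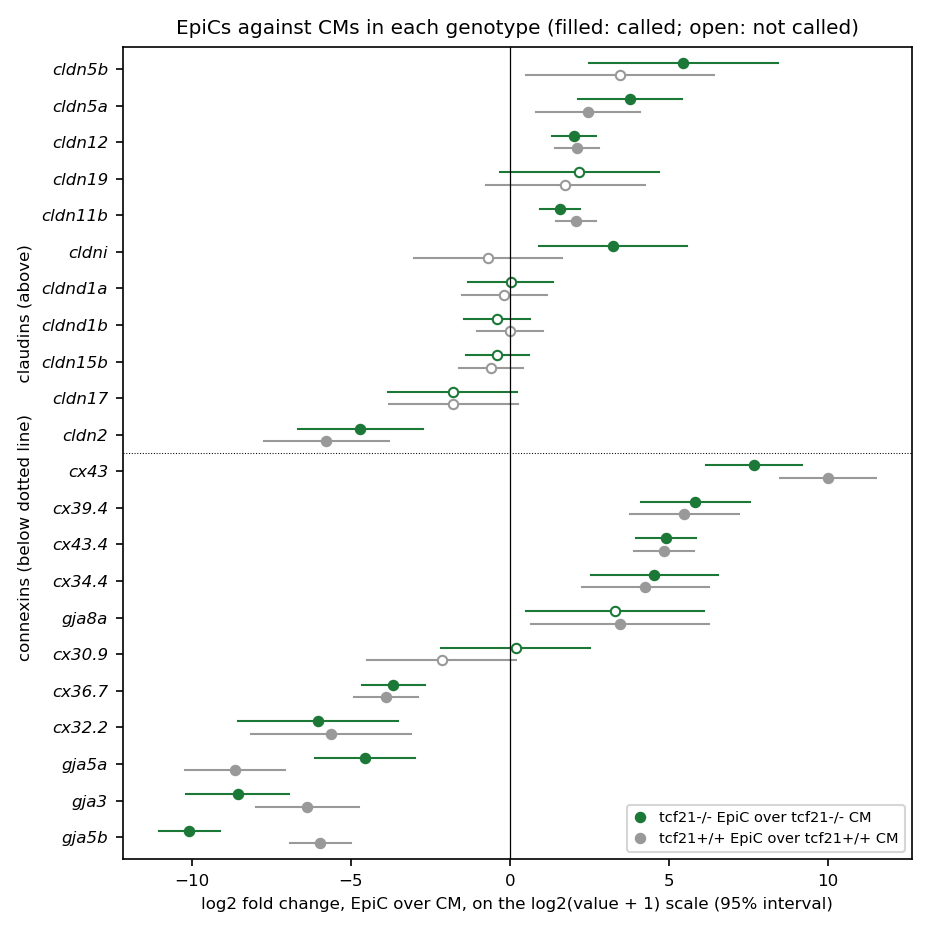
log2FC of EpiCs over CMs on the log2(value + 1) scale for 22 of the 23 tested genes, with 95% intervals from limma, tcf21-/- (green) above tcf21+/+ (grey) in each row. Filled points were called and open ones were not. The connexins fall into a group above 3 and a group under −3 with only cx30.9 between them, while cldnd1a, cldnd1b and cldn15b sit near 0 in both genotypes.

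Among the claudins, cldn11b, cldn12 and cldn5a were called higher in EpiCs in both genotypes. cldn11b (ENSDARG00000030723, chromosome 24, 26432541 to 26441318), whose mammalian counterpart is known from myelin and the testis, had 980 and 981 in tcf21-/- EpiCs, against 252 and 432 in tcf21-/- CMs, and 1119 and 1479 in tcf21+/+ EpiCs, against 311 and 297 in tcf21+/+ CMs. Its log2FC was 1.57 (SE 0.28, Padj=0.00235) in tcf21-/- and 2.08 (SE 0.28, Padj=0.000489) in tcf21+/+ cells by limma. cldn12 (ENSDARG00000003927, chromosome 16, 43227724 to 43233509) had 1152 and 1384 in tcf21-/- EpiCs, against 386 and 254 in tcf21-/- CMs, and 1322 and 1061 in tcf21+/+ EpiCs, against 217 and 345 in tcf21+/+ CMs. Its log2FC was 2.01 (SE 0.30, Padj=0.000945) in tcf21-/- and 2.11 (SE 0.30, Padj=0.000661) in tcf21+/+ cells by limma. Both genes were well above the limit of 3 reads in CMs, at 23.4 to 34.9% of the EpiC level, a larger share than that of any of the 4 EpiC connexins above. cldn12 overlaps adam22 on the opposite strand, and whether counting used strand is not stated.

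The cldn5 paralogues, known from the barrier of blood vessels in mammals, were also higher in EpiCs. cldn5a (ENSDARG00000043716, chromosome 8, 4697764 to 4699320) had 283 and 249 in tcf21-/- EpiCs, against 18 and 19 in tcf21-/- CMs (log2FC 3.77, SE 0.71, Padj=0.00313 by limma). In tcf21+/+ cells it had 99 and 182 in EpiCs, against 11 and 50 in CMs (2.45, SE 0.71, Padj=0.023). That second call was lost in a fit of the compared groups alone (Padj=0.0882) and without tcf21+/+ EpiC 1 (2.89, Padj=0.0595), EpiC 2 (2.02, Padj=0.154) or CM 1 (1.41, Padj=0.0842). cldn5b had 144 and 52 in tcf21-/- EpiCs, against 0 and 3 in tcf21-/- CMs, a ratio of 61.3 with a 95% counting interval of 20.7 to 299, since only 3 reads lie behind the CM level. It was called in tcf21-/- cells (log2FC 5.45, SE 1.3, Padj=0.00986), but not without EpiC 1 (4.73, Padj=0.0806) or CM 1 (4.45, Padj=0.0704). In tcf21+/+ cells, with 52 and 31 in EpiCs against 13 and 0 in CMs, it missed the threshold (3.46, SE 1.3, Padj=0.061).

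Markers of endothelial and endocardial cells moved with these genes in part. The sum over 14 such markers was 5656 and 5650 in tcf21-/- EpiCs against 1757 and 1370 in tcf21-/- CMs, and 5167 and 3992 in tcf21+/+ EpiCs against 881 and 1627 in tcf21+/+ CMs. kdrl, the receptor gene, was 1356 to 2140 in EpiCs and 14 to 58 in CMs, whereas cdh5, the cadherin gene that defines endothelium, was 1 to 40 in EpiCs and 291 to 651 in CMs. Most of each EpiC sum came from kdrl, fli1a and nfatc1. These and egfl7 were higher in every EpiC library than in every CM library. cdh5 was lower in every EpiC library, and the other markers of the 14 overlapped between the cell types. No marker of the 14 was at 0 in all 8 libraries. Their part in the cldn5a and cldn5b values was not tested.

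cldn2 (ENSDARG00000044387, chromosome 21, 38002879 to 38009507), which forms ion pores in leaky epithelia of mammals, was the only claudin called lower in EpiCs. It had 2 and 9 in tcf21-/- EpiCs, against 119 and 169 in tcf21-/- CMs (log2FC −4.71, SE 0.86, Padj=0.00268 by limma). In tcf21+/+ cells it had 2 and 0 in EpiCs, against 88 and 100 in CMs (−5.77, SE 0.86, Padj=0.000834). Only 3 reads lie behind the tcf21+/+ EpiC level, and the ratio of CMs to EpiCs was 76.1 with a 95% counting interval of 25.6 to 373. cldn2 overlaps rbm41 on the opposite strand.

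cldni was called in tcf21-/- cells alone, with 68 and 35 in EpiCs against 1 and 13 in CMs (log2FC 3.24, SE 1.02, Padj=0.0336 by limma). In tcf21+/+ cells it had 13 in each EpiC library, against 36 and 13 in CMs (−0.70, SE 1.02, Padj=0.615), and the groups met at 13. The difference between these differences had a log2FC of 3.94 (SE 1.45, Padj=0.612) and was not called. The tcf21-/- call was lost in 6 of 16 alternatives, among them leaving out EpiC 1 (2.77, Padj=0.171), EpiC 2 (3.71, Padj=0.0825) or CM 1 (1.83, Padj=0.187). The gene overlaps coro1a, a leukocyte gene on the opposite strand, which had 23 and 0 in tcf21-/- EpiCs against 169 and 362 in tcf21-/- CMs, and 11 and 7 in tcf21+/+ EpiCs against 82 and 89 in tcf21+/+ CMs.

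cx32.2 (ENSDARG00000076789, chromosome 20, 40724207 to 40729364) had 10 and 0 in tcf21-/- EpiCs, against 152 and 306 in tcf21-/- CMs (log2FC −6.03, SE 1.1, Padj=0.0027 by limma). It was at 0 in both tcf21+/+ EpiC libraries, against 55 and 42 in tcf21+/+ CMs, at least 18-fold lower in EpiCs (−5.62, SE 1.1, Padj=0.00354). Within CMs, both tcf21-/- libraries lay above both tcf21+/+ libraries, with a log2FC of 2.14 (SE 1.1, Padj=0.46 by limma). Of 8 leukocyte markers, 7 were ordered in the same way within CMs, beside 20.6% of all genes tested, and mpx overlapped. The sum of 8 such markers was 98 and 56 in tcf21-/- EpiCs against 2142 and 2948 in tcf21-/- CMs, and 20 and 22 in tcf21+/+ EpiCs against 588 and 687 in tcf21+/+ CMs. The macrophage gene mpeg1.1 had 658 and 808 in tcf21-/- CMs, against 241 and 234 in tcf21+/+ CMs. ptprc was at 0 in all 4 EpiC libraries. The part of leukocytes in the cx32.2 values was not tested.

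**Figure D3:**
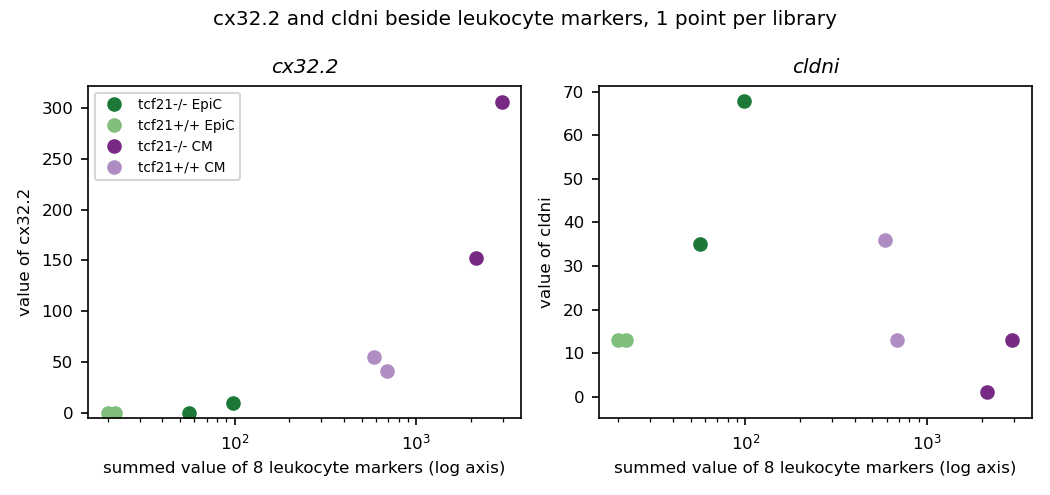
Value of cx32.2 (left) and of cldni (right) against the summed value of 8 leukocyte markers on a log axis, 1 point per library, coloured by group. The 2 tcf21-/- CM libraries have both the highest marker sums (2142 and 2948) and the highest cx32.2 values (152 and 306). cldni is highest at 68 in tcf21-/- EpiC 1, where the marker sum is 98. It is at 35 in tcf21-/- EpiC 2 (marker sum 56) and at 36 in tcf21+/+ CM 1 (marker sum 588).

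6 of the 23 tested genes were called between EpiCs and CMs in neither genotype. cldnd1a and cldnd1b, which carry a claudin-type domain, stayed close, with log2FC of 0.03 (95% interval −1.31 to 1.36) and −0.41 (−1.45 to 0.62) in tcf21-/- and −0.18 (−1.51 to 1.15) and −0.00 (−1.04 to 1.03) in tcf21+/+ cells. cldn15b had 220 and 193 in tcf21-/- EpiCs against 310 and 237 in tcf21-/- CMs, and 133 and 180 in tcf21+/+ EpiCs against 366 and 151 in tcf21+/+ CMs, and the tcf21+/+ groups overlapped. cldn17 had 8 and 2 in tcf21-/- EpiCs against 29 and 10 in tcf21-/- CMs, and 5 and 5 in tcf21+/+ EpiCs against 24 and 16 in tcf21+/+ CMs, with Padj=0.143 and 0.138 by limma. cldn17 overlaps zgc:110333 on the same strand, and cldn15b overlaps naa38 on the opposite strand. cldn19, known in mammals from the kidney tubule, had 30 and 20 in tcf21-/- EpiCs against 7 and 3 in tcf21-/- CMs, and 9 and 9 in tcf21+/+ EpiCs against 0 and 8 in tcf21+/+ CMs, with Padj=0.153 and 0.234. cx30.9 had 21 and 16 in tcf21-/- EpiCs against 9 and 28 in tcf21-/- CMs, and 1 and 13 in tcf21+/+ EpiCs against 22 and 23 in tcf21+/+ CMs. The 95% intervals of the low genes were wide. In tcf21-/- cells they ran from −3.8 to 0.2 for cldn17, −0.3 to 4.7 for cldn19 and −2.2 to 2.5 for cx30.9. No difference was detected for these genes, which does not show that it was absent.

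Several connexins sit beside one another in the genome, and neighbours did not always share a pattern. 3 pairs of tested genes that lie within 50 kb of each other are described. cx43 and cx32.2, on the same strand of chromosome 20 with 3.7 kb between them, were called in opposite directions in both genotypes. gja8a and gja5a, 31.9 kb apart on chromosome 9, were called in opposite directions in tcf21+/+ cells. There the gja8a call was narrow (Padj=0.0491 by limma) and was lost in 12 of 16 alternatives, and in tcf21-/- cells gja8a was not called. cx39.4 was called higher in EpiCs, and cx30.9, 33.5 kb away on chromosome 19 with 2 genes of the table between them, was not called. cx30.3 lies 2.9 kb from gja3 on the same strand of chromosome 9 and had 13 and 10 in tcf21-/- EpiCs against 0 in both tcf21-/- CM libraries, where gja3 was high, and 16 and 5 in tcf21+/+ EpiCs against 0 and 20 in tcf21+/+ CMs. It was not tested and shares a strand with the overlapping gene cryl1.

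**Figure D4:**
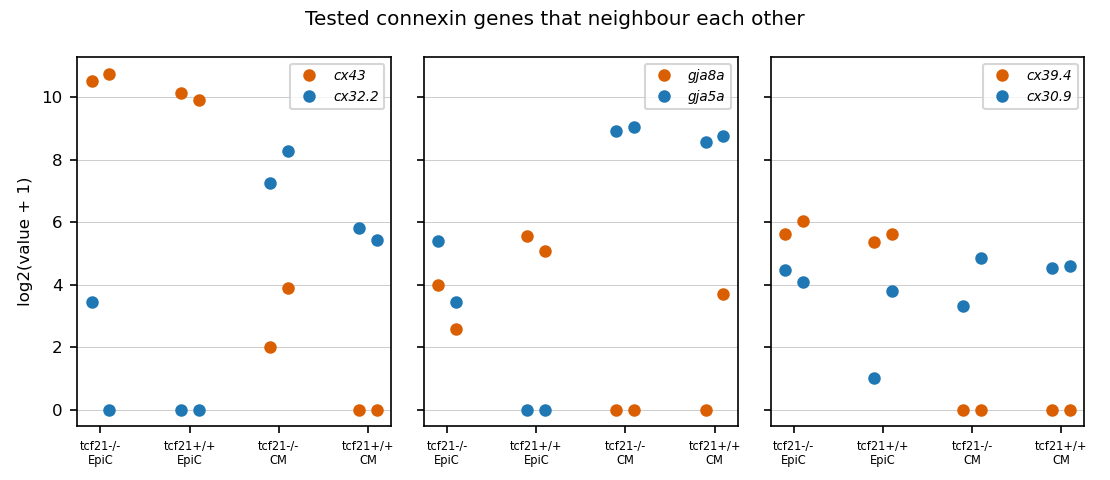
log2(value + 1) in each library for 3 pairs of neighbouring connexin genes, with groups from tcf21-/- EpiCs at the left to tcf21+/+ CMs at the right. cx43 and cx32.2 cross over between EpiCs and CMs, as do gja8a and gja5a apart from tcf21-/- EpiCs, whereas cx39.4 is at 0 in the 4 CM libraries and cx30.9 is not.

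Between genotypes, 1 of the 23 was called in EpiCs. This was gja5b, with a lower level in tcf21-/- EpiCs. The shares of all genes tested that were called were 0.149% lower and 0.0435% higher. An unadjusted p under 0.05 was reached by 1 gene that was higher and 2 that were lower, beside 4.17% and 4.29% of all genes tested. 7 of the 23 had both tcf21-/- libraries above both tcf21+/+ libraries and 5 had both below, where 21.6% and 21.5% of all genes tested did so. The median log2FC was 0.41 for the claudins and 0.21 for the connexins, beside −0.01 for all genes.

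gja5b had 1 and 1 in tcf21-/- EpiCs, against 49 and 26 in tcf21+/+ EpiCs, a log2FC of −4.20 (SE 0.42, Padj=0.0192 by limma) and a ratio of 46.8 with a 95% counting interval of 12.6 to 392. The groups did not overlap. The call was lost without any 1 of the 4 EpiC libraries, with log2FC between −4.64 and −3.76. Each of these fits leaves 1 library in a group, and why the call was lost was not tested. The gja5b call was also lost in a fit of the EpiC libraries alone (Padj=0.141) and on estimated reads without scaling (−4.30, Padj=0.0776). Under both settings no gene of the whole table was called in this comparison. Of the 8 CM markers, 4 were ordered alike (myh6, myl7, actc1a and tnni1b), the other 4 overlapped, and none was ordered the other way. Over all genes tested, 21.5% had both tcf21-/- EpiC libraries below both tcf21+/+ ones, and 21.6% had both above. myh6 had 88 and 130 in tcf21-/- EpiCs against 540 and 229 in tcf21+/+ EpiCs, and myl7 had 1327 and 1222 against 1333 and 1377. The sum of 8 CM markers also overlapped, with 10361 and 9398 in tcf21-/- EpiCs against 12931 and 8131 in tcf21+/+ EpiCs. The part of CM RNA in the EpiC values of gja5b was not tested.

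gja5a went the other way, with 41 and 10 in tcf21-/- EpiCs against 0 in both tcf21+/+ EpiC libraries, at least 9.47-fold higher (3.71-fold without tcf21-/- EpiC 1). It missed the threshold (log2FC 4.43, SE 0.69, Padj=0.0572 by limma), and over its 17 alternatives Padj ran between 0.0216 and 0.273, with a call under cyclic loess normalization (0.0489), a mean value of at least 50 (0.0434) and library weights (0.0216). Of the 14 endothelial and endocardial markers, 5 also had both tcf21-/- EpiC libraries above both tcf21+/+ ones and 1 (egfl7) had both below. The others overlapped, among them kdrl, with 1704 and 1356 in tcf21-/- against 2140 and 1452 in tcf21+/+ EpiCs. Of all genes tested, 21.6% had both above and 21.5% both below. Among the 5, pecam1 had 56 and 11 in tcf21-/- EpiCs against 0 in both tcf21+/+ EpiC libraries, and tie1 had 184 and 196 against 19 and 44. The part of endothelial and endocardial cells, or of CM RNA, in the EpiC values of gja5a was not tested. gja3 had 3 and 0 in tcf21-/- EpiCs, against 8 and 5 in tcf21+/+ EpiCs (−1.88, SE 0.71, Padj=0.514), values at or near the limit of 3 reads. Of the EpiC connexins with higher values, cx43.4 overlapped between genotypes. cx43 did not overlap, with 1445 and 1714 in tcf21-/- against 1107 and 957 in tcf21+/+ EpiCs, but missed the threshold, with a log2FC of 0.61 (95% interval −0.89 to 2.12, Padj=0.905). No claudin reached Padj=0.05 in EpiCs, and the lowest Padj among them was 0.692, for cldn2. cldn5a, with 283 and 249 in tcf21-/- against 99 and 182 in tcf21+/+ EpiCs, had a log2FC of 0.98 (95% interval −0.65 to 2.60, Padj=0.813).

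In CMs, none of the 23 genes was called between genotypes, while 0.249% of all genes tested were called higher and 0.118% lower. An unadjusted p under 0.05 was reached by 1 gene that was higher and by 0 that were lower, beside 7.33% and 4.88% of all genes tested. It was cx43, with 3 and 14 in tcf21-/- CMs against 0 in both tcf21+/+ CM libraries, at least 1.8-fold higher (log2FC 2.95, SE 0.66, Padj=0.141 by limma). Without tcf21-/- CM 2, the remaining value of 3 lies under the limit of 3 reads in tcf21+/+ CMs (4.72), so that no bound is left. The sum of the 8 epicardial markers overlapped, with 824 and 1172 in tcf21-/- CMs against 1123 and 1110 in tcf21+/+ CMs. Most of this sum was cav1, with 763 and 837 in tcf21-/- against 870 and 838 in tcf21+/+ CMs. None of the 8 had both tcf21-/- CM libraries above both tcf21+/+ ones, and 2 (cav1 and tcf21) had both below. The rest overlapped or met. Among them, postnb (0 and 22) and wt1a (0 and 8) had reads in tcf21-/- CM 2 alone, against 0 in both tcf21+/+ CM libraries. The part of EpiC RNA in the cx43 values was not tested. The connexins that were high in CMs were not called between genotypes. gja5b overlapped between genotypes, gja3 and gja5a had both tcf21-/- libraries above both tcf21+/+ libraries, and cx36.7, with 597 and 608 in tcf21-/- against 923 and 859 in tcf21+/+ CMs, had both below (−0.56, 95% interval −1.56 to 0.44, Padj=0.568). 5 of the 23 had both tcf21-/- libraries above and 2 had both below, beside 20.6% and 19.3% of all genes tested.

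Whether the genotype difference itself differed between EpiCs and CMs was tested as an interaction. No gene of the table was called, the 23 included. An unadjusted p under 0.05 was reached by 2 of the 23 with a positive difference and by 2 with a negative one, beside 2.53% and 4.54% of all genes tested. The positive ones were gja5a (log2FC 4.10, SE 0.98, Padj=0.274 by limma) and cldni. The negative ones were gja5b (−4.13, SE 0.60, Padj=0.128) and cx43 (−2.34, SE 0.93, Padj=0.653).

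**Figure D5:**
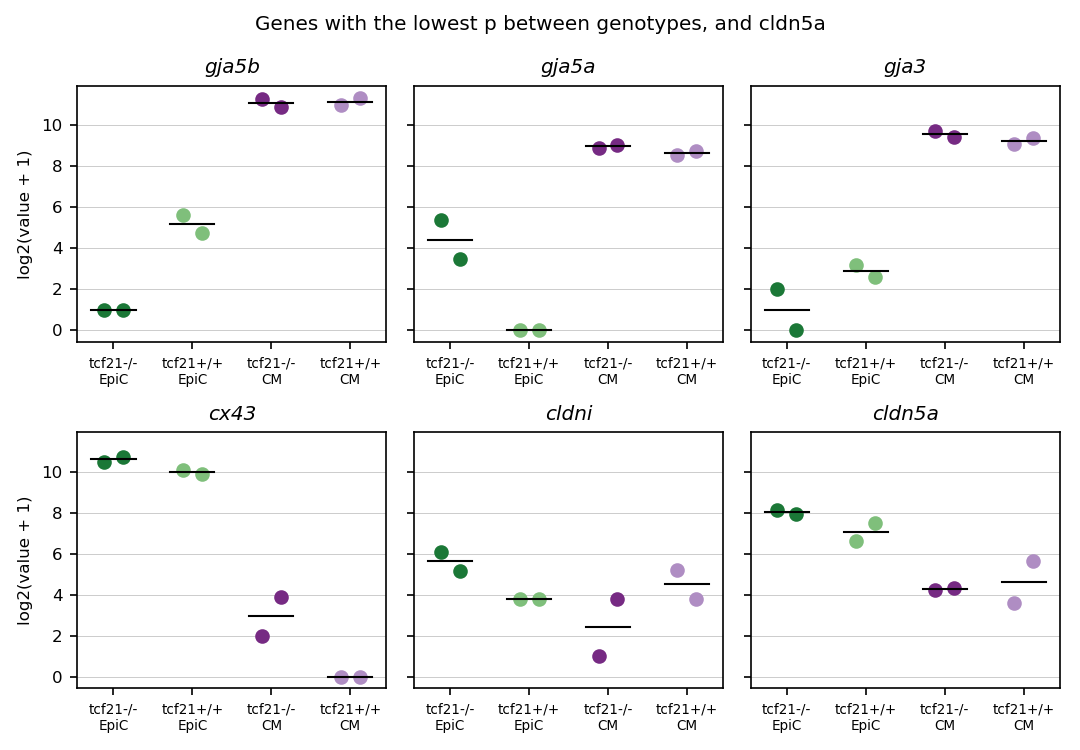
log2(value + 1) in each library (points) and the group mean (line) for the 5 genes with an unadjusted p under 0.05 in a genotype comparison or in the interaction, and for cldn5a, with groups from tcf21-/- EpiCs at the left to tcf21+/+ CMs at the right. gja5b is at 1 and 1 in tcf21-/- EpiCs against 49 and 26 in tcf21+/+ EpiCs, gja5a is at 0 in both tcf21+/+ EpiC libraries, and cx43 is at 0 in both tcf21+/+ CM libraries.

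The 19 genes that were not tested reached at most 42 in any library, and 100 of their 152 values were 0. cldn11a had 42 and 15 in tcf21-/- EpiCs, against 0 and 18 in tcf21+/+ EpiCs, and was at 0 in all 4 CM libraries. cldnh, cldnb and cldn7b were at 0 in both tcf21-/- EpiC libraries. In tcf21+/+ EpiCs, cldnh had 10 and 37, cldnb, used in zebrafish to mark the lateral line primordium, 3 and 32, and cldn7b 9 and 14. They were thus at least 9.29-fold, 6.92-fold and 4.55-fold lower in tcf21-/- EpiCs by the means, with no test. tcf21+/+ EpiC 2 carries much of this, since without it the bounds were 3.95-fold for cldnh and 1.19-fold for cldnb. cldnh and cldnb lie 24.3 kb apart on chromosome 21. The sum of 11 epithelial markers was 9306 and 9160 in tcf21-/- EpiCs against 9824 and 11299 in tcf21+/+ EpiCs. 5 of the 11 (krt4, krt91, tp63, cyt1 and grhl3) also had both tcf21-/- EpiC libraries below both tcf21+/+ ones, 2 (krt5 and cyt1l) had both above, and 4, epcam among them, overlapped. Over all genes tested, 21.5% had both below and 21.6% both above. tp63 differed little, with 181 and 219 in tcf21-/- EpiCs against 228 and 223 in tcf21+/+ EpiCs. krt4 had 621 and 852 in tcf21-/- EpiCs against 918 and 1352 in tcf21+/+ EpiCs. The part of epithelial cells in these claudin values was not tested. cx40.8 had 7 and 17 in tcf21-/- EpiCs against 0 in both tcf21-/- CM libraries, and 16 and 1 in tcf21+/+ EpiCs against 0 and 2 in tcf21+/+ CMs. gjd1a and gjd2b, known in zebrafish from electrical synapses, were also low and not tested. gjd1a was at 0 in both tcf21-/- EpiC libraries, against 14 and 6 in tcf21+/+ EpiCs. This is at least 3.95-fold lower (2.37-fold without tcf21+/+ EpiC 1). gjd2b went the other way, with 0 and 13 in tcf21-/- EpiCs against 0 in both tcf21+/+ EpiC libraries.

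Junction partners were described by a list of 47 symbols (scaffold and polarity genes, other genes of tight junction membrane proteins, and pannexin genes). Of the list, 40 rows were in the table and 30 were tested. Of these, 12 were higher and 5 lower in EpiCs than in CMs in tcf21-/- cells, and 13 and 3 in tcf21+/+ cells. These are 40% and 16.7% of the 30 in tcf21-/- cells, beside 21% and 18% of all genes tested, and 43.3% and 10% in tcf21+/+ cells, beside 22.9% and 18.8%. The median log2FC was 0.9 in tcf21-/- and 0.98 in tcf21+/+ cells, beside 0.09 and 0.11 for all genes. jam2b, an adhesion molecule gene, had the largest difference, with 2232 and 1841 in tcf21-/- EpiCs against 0 and 21 in tcf21-/- CMs, and 2261 and 2588 in tcf21+/+ EpiCs against 33 and 0 in tcf21+/+ CMs. The polarity gene pard3ba had 63 and 44 in tcf21-/- EpiCs against 2 and 0 in tcf21-/- CMs, and 54 and 110 in tcf21+/+ EpiCs against 0 in both tcf21+/+ CM libraries. marveld1 had 1426 and 1551 in tcf21-/- EpiCs against 70 and 78 in tcf21-/- CMs, and 1274 and 1321 in tcf21+/+ EpiCs against 75 and 81 in tcf21+/+ CMs. cgna, which encodes the tight junction linker cingulin, had 24 and 1 in tcf21-/- EpiCs, against 371 and 102 in tcf21+/+ EpiCs, and was at 0 in all 4 CM libraries (log2FC −4.79, SE 1.25, Padj=0.268 between genotypes in EpiCs by limma). By limma, cgna was called higher in EpiCs than in CMs in tcf21+/+ cells (7.61, SE 1.25, Padj=0.00138) and not in tcf21-/- cells (2.82, SE 1.25, Padj=0.108). Its paralogue cgnb went the other way, with 20 and 27 in tcf21-/- EpiCs against 0 in both tcf21+/+ EpiC libraries (4.60, SE 0.74, Padj=0.0572), the lowest Padj of the 30 in that comparison. Unlike cgna, cgnb was counted in CMs, with 33 and 94 in tcf21-/- and 71 and 70 in tcf21+/+ CMs. It was called lower in EpiCs than in CMs in tcf21+/+ cells (−6.16, SE 0.74, Padj=0.000268 by limma) but not in tcf21-/- cells (−1.23, SE 0.74, Padj=0.226). None of the 30 was called between genotypes. An unadjusted p under 0.05 was reached in EpiCs by 4 that were higher and 1 that was lower, beside 4.17% and 4.29% of all genes tested, and in CMs by 3 that were higher and 0 that were lower, beside 7.33% and 4.88%.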

How the data were processed

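RNA was sequenced from cells sorted at 96 hpf, with 2 libraries in each of 4 groups. By the methods, reads were trimmed, aligned to danRer11 and counted per gene on Ensembl release 99 with reads on several genes left out, and the submitters' processing notes name Trimmomatic 0.39, STAR 2.7.3a and featureCounts 1.6.5. What the authors deposited is a signal, the count of each gene scaled by a library factor and then rounded to a whole number. In libraries where a read came to under 1 unit, rounding hides the reads, so count models were not used. A scan of low values, which found 20 of 20 simulated steps within 0.002, estimated what 1 read was worth (0.7762 to 1.5728) and hence reads and the limit of 3 reads. Intervals from reads (95%, exact binomial) and these limits cover counting error only.

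Values were compared as log2(value + 1) with limma 3.58.1 in R 4.3.3 (eBayes with an abundance trend, 8 libraries in 1 fit), two-sided, with Benjamini-Hochberg adjustment. By the methods the replicates are biological. The sorting sessions of each library are not given in the sources used here, and P values measure only the spread between these libraries. Genes named with full values were those called in any of 5 contrasts, the 12 highest per group, those with an unadjusted p under 0.05 between genotypes and the listed heart connexins and vessel claudins. cldn7b, cldnb, cldnh, cldn11a, cx30.3, gjd1a, gjd2b and cgnb were chosen after their values were seen, as was the genotype comparison of cgna. Of the junction partners, the 3 with the largest change among those called in each cell type contrast were named. The members, lists and tests were chosen with earlier results of these data known. Alternatives were other scalings, pseudocounts, filters and fit settings, the replicate number as a block and each library left out in turn, with estimated reads without scaling, and bounds without 1 library, added after seeing the data. Neighbours and overlaps use the coordinates of the table (GRCz11), and RefSeq symbols (GRCz12tu) gave names only. 1 tested gene is counted in the totals and not reported here. No sequence was used here. Python 3.11.15, pandas 2.3.3, numpy 2.4.6, scipy 1.17.1 and matplotlib 3.10.9 were used.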

Additional observations from a re-analysis of the deposited data

How the results depend on the processing

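No called value changed sign under the alternatives run. The count of genes called between EpiCs and CMs was 11 to 18 over 17 alternatives in tcf21-/- cells (main 16, 14 to 16 without 1 library) and 11 to 19 in tcf21+/+ cells (main 15, 13 to 17 without 1 library). The ends of these ranges come from other numbers of genes tested than the 23 of the main fit. The counts of 11 were of 14 genes, at a mean value of at least 50. Those of 18 and 19 were of 42 genes, without a filter. The split of higher and lower calls was 8 and 7 under cyclic loess and 9 and 7 under quantile normalization in tcf21-/- cells (main 10 and 6), and 7 and 8 and 8 and 8 in tcf21+/+ cells (main 9 and 6). Between genotypes in EpiCs, where 1 gene was called, 2 were called under cyclic loess, a mean value of at least 50 or library weights. In a fit of the compared groups alone and on estimated reads without scaling, 0 were called, and no gene of the whole table was. The call was also lost without 1 library, where fewer samples enter the fit. In CMs and in the interaction, all alternatives gave 0. Same-numbered libraries deviated together by correlations of −0.081 to 0.067, and with the replicate number as a block 16 and 14 genes were called between EpiCs and CMs in tcf21-/- and tcf21+/+ cells, 1 between genotypes in EpiCs (gja5b, Padj=0.0478) and 0 in CMs. A pseudocount of 5 moved 15 values by over 1.5 times and changed no call among them. Estimated reads without scaling moved the median log2FC of all genes to 0.459 in tcf21-/- and 0.748 in tcf21+/+ cells. Depth limits the genes near 3 reads, gja5b and gja3 in tcf21-/- EpiCs among them. The cause of these changes was not tested.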

Other observations

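The remaining genes with low values were cldn10l2, cldn15a, cldn15la, cldng, cx23, cx27.5, cx44.2, cx47.1, cx52.6, cx52.9 and gja8b, and none of them was tested. No sample was left without a group, and no result met the rules for a closer look.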
